A study of Mus musculus with 15 samples.

Results

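Mouse NIH3T3 fibroblasts that carried mouse Runx2 were compared directly with NIH3T3 fibroblasts that carried mouse Runx1. The arrays were taken by their titles, 2 for the Runx2 line and 2 for the Runx1 line, out of 15 Affymetrix arrays in 8 groups. NIH3T3 is an immortalised line of mouse embryo fibroblasts, and every line had been transduced with the retroviral vector pBabe-puro, which confers resistance to puromycin. Both inserts were constitutive constructs, per the labels, and the study also profiled the empty vector without and with 4-hydroxytamoxifen (4-OHT), a line with mouse Runx3, a line with human RUNX1, and a line with RUNX1-ER, a human RUNX1 joined to a hormone-binding domain that 4-OHT activates, uninduced and induced. All cultures reached confluence over 7 days in DMEM and then received 0.2% ethanol, with or without 0.1 mM 4-OHT, for 24 h. The labels do not say which of these treatments the Runx1, Runx2, Runx3 and human RUNX1 lines had, or whether a line was a pool or 1 clone. The 2 arrays of a line are numbered as biological replicates, with nothing on separate cultures or transductions, so every p-value here rests on the spread between such arrays, which may be technical.

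Runx1, Runx2 and Runx3 are transcription factors that share a DNA-binding Runt domain, recognise the same short DNA element and need the partner protein CBF-beta to bind it well. Runx1 is known for its part in the formation of blood cells, Runx2 for bone and for the maturation of cartilage, and Runx3 for T cells and sensory neurons. Fibroblasts of the NIH3T3 line are neither blood nor bone, so that the comparison set the proteins side by side in a cell outside the tissues they are best known for.

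The values are log2 signals after Robust Multichip Average (RMA) normalization, and a difference of 1 is a factor of 2. The array medians over all 45101 probe sets ran from 3.69 to 3.75, so values near 4 lie close to the dim end, where RMA shrinks differences and a fold understates the change. The Runx1 arrays correlated with each other at 0.996 across probe sets and the Runx2 arrays at 0.994. Runx2 replicate 2 was marginally closer to an array of induced RUNX1-ER cells. The inserted Runx1 was visible: its brightest probe set read 9.11 and 9.30 in the Runx1 line and 4.49 and 4.75 in the Runx2 line, a difference of -4.59 (SE 0.12, limma adjusted p = 2.43e-10), and vector cells read 4.56 and 4.75. Of the other 5 Runx1 probe sets, 1 differed in the same way (7.23 against 4.23 on average) and 4 were not called. No probe set named Runx2 was used here, so the insert of the Runx2 line was not checked. The Runx3 probe set read 4.39 and 4.26 in the Runx1 line and 4.41 and 4.10 in the Runx2 line (-0.07, adjusted p = 0.919). It read 4.46 and 3.96 in the Runx3 line itself and 4.54 and 4.35 in vector cells, so the insert of the Runx3 line was not visible and this probe set cannot show whether Runx3 differed. Cbfb, the gene of CBF-beta, read 9.49 and 9.48 against 9.52 and 9.48. The mean level of the 14 fibroblast markers was 9.29 to 9.38 on the 4 arrays, with Col1a2 the brightest at a mean of 13.1 in each line. Fap and Lum, near 3.2, and Dcn, near 4.4, were at the dim end, and 0 of the 14 were called. No marker was called in the epithelial (11 measured), blood cell (8), endothelial (9), adipocyte (6), muscle (9) and hepatocyte (7) lists, whose mean level lay between 3.44 and 4.25 on the 4 arrays.

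With limma and Benjamini-Hochberg adjustment over 18193 genes, 273 genes (1.5%) differed between the lines at an adjusted p under 0.05. Fewer were higher in the Runx2 line than lower: 93 (0.511%) against 180 (0.989%). The median size of a called difference was 0.64 on the log2 scale, and 39 genes differed by at least 2-fold, 18 of them higher (0.0989%) and 21 lower (0.115%). All 273 called genes had arrays that did not overlap between the lines, as did 6915 of all genes (38%). At an unadjusted p under 0.05 there were 2016 genes (11.1%). The number of calls depended on single arrays. Leaving out Runx1 replicate 1 gave 94 calls and leaving out Runx1 replicate 2 gave 88. Leaving out Runx2 replicate 1 gave 120, leaving out Runx2 replicate 2 gave 290, and a fit of the 4 arrays alone gave 25. The number of genes called at least 2-fold stayed between 32 and 53 when any 1 of these arrays was left out.

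**Figure D1:**
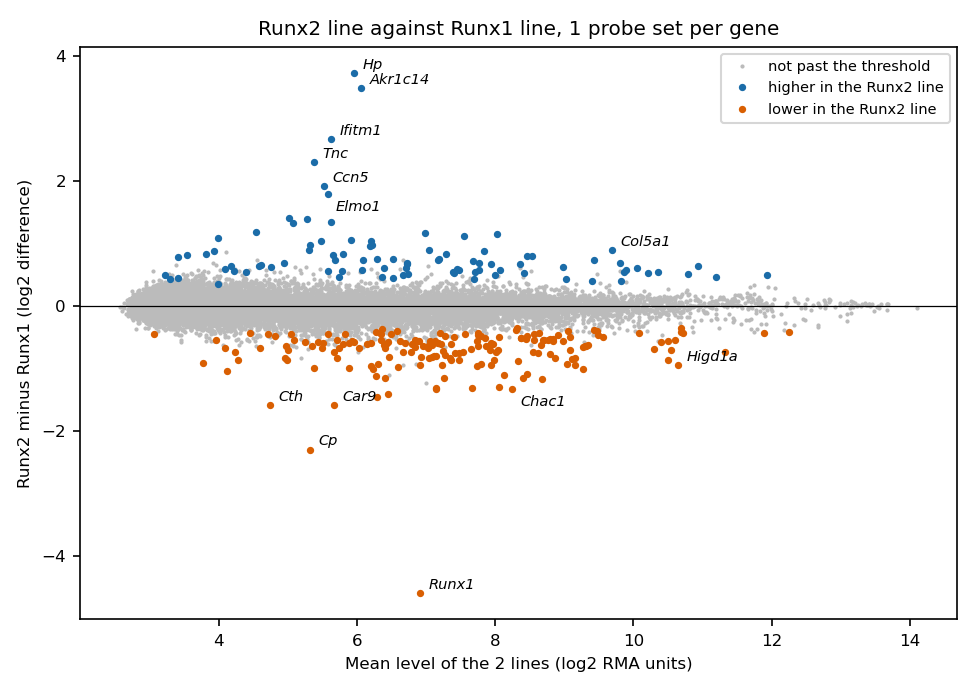
Difference between the Runx2 and Runx1 lines (log2, vertical axis) against the mean level of the lines (log2 RMA units, horizontal axis), 1 point per gene and 2 arrays per line. Blue points are the 93 genes called higher in the Runx2 line and orange points the 180 called lower. Hp and Akr1c14 stand highest, at 3.72 and 3.48, and the inserted Runx1 lowest, at -4.59.

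The genes most raised in the Runx2 line over the Runx1 line were Hp, which encodes haptoglobin, the plasma protein that binds free haemoglobin, and Akr1c14, an aldo-keto reductase that acts on steroids. Hp read 3.90 and 4.29 in the Runx1 line and 7.91 and 7.72 in the Runx2 line, 13.2-fold higher (difference 3.72, SE 0.22, limma adjusted p = 1.82e-06). Akr1c14 read 4.64 and 4.00 against 7.56 and 8.05, 11.2-fold higher (3.48, SE 0.22, adjusted p = 3.11e-06). In both genes the Runx1 arrays stood at the dim end, beside vector cells (mean 3.91 for Hp and 4.23 for Akr1c14), and of these 3 groups only the Runx2 line was well above it. The other groups parted the genes. The Runx3 line had Akr1c14 at 7.50 and 7.02 but Hp at 4.96 and 4.13, and induced RUNX1-ER cells had means of 7.33 and 4.92. The human RUNX1 array read 7.23 for Akr1c14 and 5.88 for Hp. Ifitm1, an interferon-induced membrane protein, read 4.13 and 4.46 against 6.77 and 7.14 (2.66, SE 0.20, adjusted p = 1.53e-05). Its level was higher still in the Runx3 line (8.38 and 7.72) and on the human RUNX1 array (9.65), so for this gene the mouse Runx1 line was the low one among the constitutive lines. Induced RUNX1-ER cells were low as well, at 4.39 and 4.39.

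Several of the next genes encode proteins of the extracellular matrix or of cell movement. Tnc (tenascin-C, a matrix glycoprotein that modulates adhesion) read 4.25 and 4.20 in the Runx1 line and 6.33 and 6.73 in the Runx2 line (2.30, SE 0.13, limma adjusted p = 1.54e-06). Ccn5, a small matricellular protein, read 4.28 and 4.85 against 6.67 and 6.29 (1.92, SE 0.22, adjusted p = 6.35e-04). Elmo1, which works with DOCK proteins to activate the GTPase Rac, read 4.65 and 4.72 against 6.40 and 6.54 (1.78, SE 0.09, adjusted p = 9.32e-07). Against vector, the Runx1 line differed by -0.52, 0.14 and 0.05 in these 3 genes, with no call. For Tnc both Runx1 arrays lay below both vector arrays (4.81 and 4.69). Its difference from vector with 4-OHT was -0.61 (limma adjusted p = 0.0231). The Runx2 line lay above vector by 1.78, 2.06 and 1.83 (adjusted p = 6.91e-06, 1.58e-04 and 3.38e-07). The higher levels of these genes were not particular to the Runx2 line. The Runx3 line (means 6.85, 5.91 and 7.10) and the human RUNX1 array (7.95, 6.11 and 6.21) were also above vector (means 4.75, 4.42 and 4.64). Sned1, another matrix protein, differed by 1.41. As for Tnc, its Runx1 arrays (4.26 and 4.37) lay below vector (5.15 and 5.14), and the Runx2 arrays (5.66 and 5.78) above it. Ptpn3, a tyrosine phosphatase, and Tcf7l1, a DNA-binding factor of the Wnt pathway, had the same arrangement, with differences of 1.34 and 1.15 between the lines. Tcf7l1 read 7.42 and 7.49 against 8.58 and 8.63 (SE 0.08, adjusted p = 1.47e-05), with vector at 7.96 and 7.93 and no overlap among the groups. Of the 12 genes with the largest differences in this direction, Lpl (lipoprotein lipase, 1.39), Deptor (an inhibitor of the kinase mTOR, 1.17) and Snai1 (1.16) were no longer called without some of the arrays. For Deptor the Runx2 mean (5.13) was level with vector (5.09), and the Runx1 mean (3.95) lay below it. The highest adjusted p was 0.0527 for Lpl, without Runx1 replicate 2. It was 0.134 for Deptor, which was lost without either Runx1 array or without Runx2 replicate 2, and 0.0921 for Snai1, lost without either Runx1 array or without Runx2 replicate 1.

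**Figure D2:**
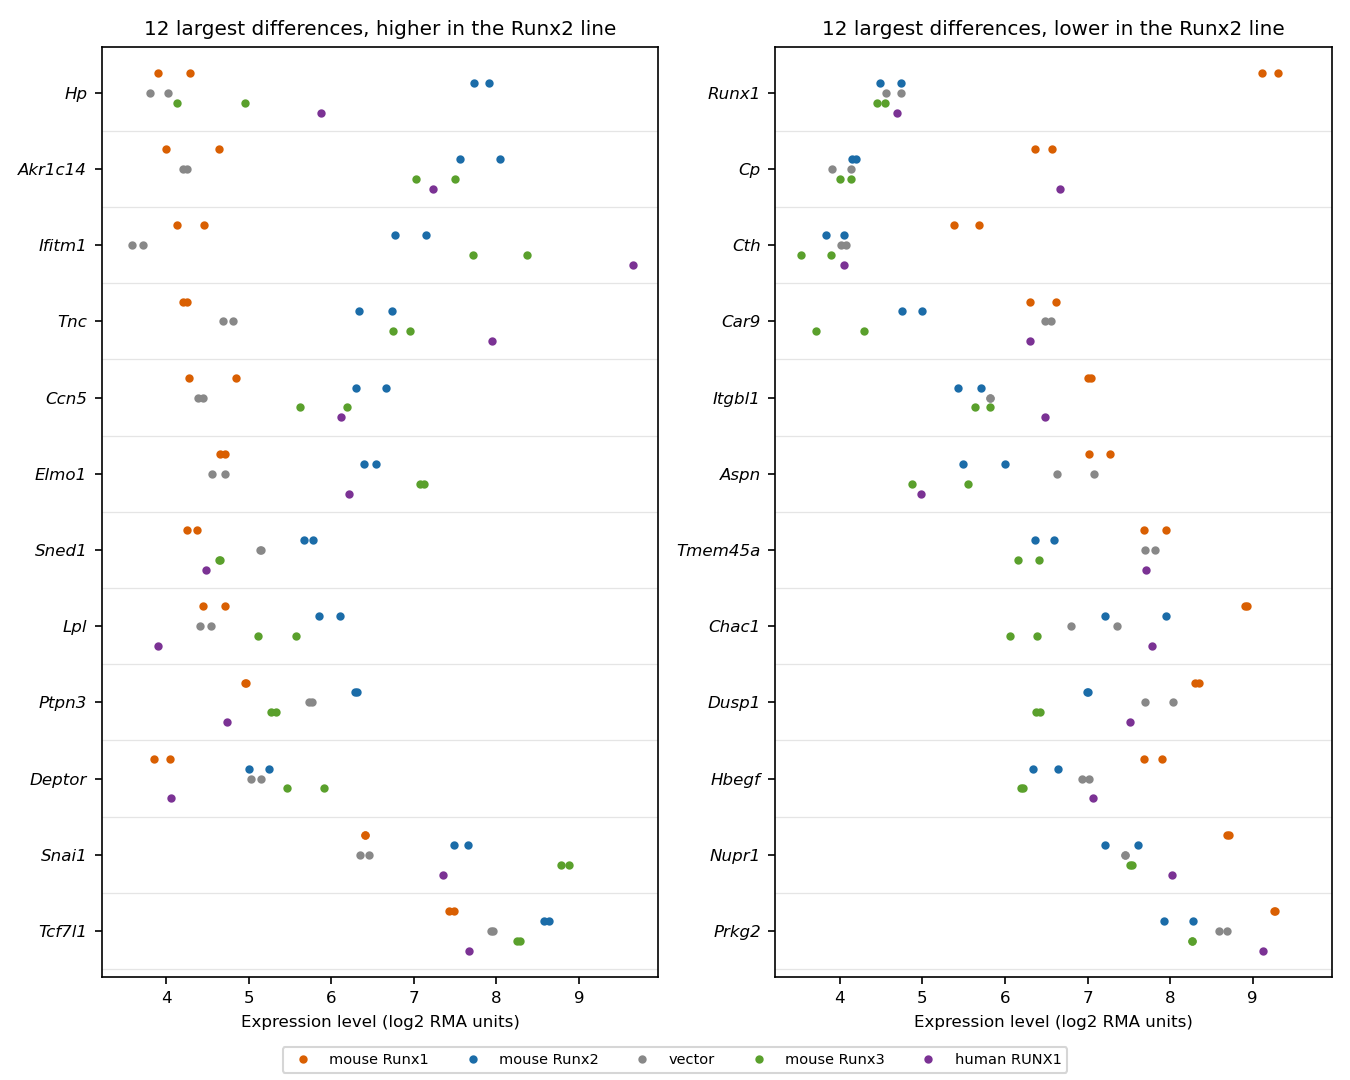
Expression level (log2 RMA units, horizontal axis) of the 12 genes with the largest difference in each direction, 1 point per array, for the Runx1, Runx2, vector without 4-OHT and Runx3 groups (2 arrays each) and human RUNX1 (1 array). In every row the orange Runx1 points and blue Runx2 points are apart. The grey vector points lie beside Runx1 for Hp and Akr1c14, beside Runx2 for Cp and Cth, and beside Runx1 again for Car9 and Tmem45a.

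Apart from Runx1 itself, the gene most reduced in the Runx2 line against the Runx1 line was Cp, which encodes the copper-carrying ferroxidase ceruloplasmin. It read 6.57 and 6.37 in the Runx1 line and 4.20 and 4.15 in the Runx2 line, a difference of -2.30 (SE 0.17, limma adjusted p = 1.90e-05). The Runx2 line was at the vector level (4.14 and 3.91) and so was the Runx3 line (4.13 and 4.00), while the human RUNX1 array read 6.67. Induced RUNX1-ER cells, which also carry a human RUNX1, were at the vector level too (4.21 and 3.91), as were uninduced ones (mean 4.26). Cp had 7 other probe sets, of which 4 were called in the same direction and none in the other. Itgbl1, a secreted protein related to integrin beta chains, read 7.05 and 7.01 against 5.43 and 5.71 (-1.46, SE 0.10, adjusted p = 1.19e-05), with vector again beside the Runx2 line at a mean of 5.82. Prkg2, a cyclic GMP-dependent protein kinase, read 9.25 and 9.27 against 7.93 and 8.27 (-1.16, adjusted p = 1.41e-04), and vector at 8.68 and 8.59 lay between the lines. Tmem45a, a membrane protein, read 7.95 and 7.69 against 6.59 and 6.37 (-1.34, adjusted p = 0.00161), and here vector (7.69 and 7.82) lay with the Runx1 line. Aspn (asporin, a small proteoglycan of the matrix) read 7.27 and 7.02 against 5.49 and 6.00. Its difference of -1.40 was no longer called without either Runx1 array or without Runx2 replicate 1 (highest adjusted p = 0.143).

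The gene list with the largest share of calls was that of the amino acid response. In this response ATF4, a transcription factor made when amino acids run short or the kinases of the integrated stress response are active, switches on genes for amino acid synthesis, amino acid transport and tRNA charging. Of 46 members measured, 16 (34.8%) were lower in the Runx2 line and 0 were higher, with a median difference of -0.38, against 1.5% called and a median of -0.01 over all genes. Below 0 lay 41 members. Among the 8048 genes with a mean level above 5 over all arrays, 2.94% were called, 4728 lay below 0 and the median was -0.03. The 16 differences ran from -1.59 to -0.40. The members with the largest differences were Cth, which makes cysteine from cystathionine, Chac1, which degrades glutathione, Nupr1, a small stress-induced nuclear protein, and Trib3, a pseudokinase that restrains ATF4. Cth read 5.38 and 5.69 in the Runx1 line and 4.06 and 3.83 in the Runx2 line (-1.59, SE 0.17, limma adjusted p = 3.88e-04). Chac1 read 8.93 and 8.91 against 7.21 and 7.95 (-1.34, SE 0.23, adjusted p = 0.012), and Nupr1 read 8.72 and 8.69 against 7.21 and 7.62 (-1.29, SE 0.12, adjusted p = 1.37e-04). Trib3 read 9.05 and 8.97 against 7.76 and 8.08, and Atf4 itself 10.86 and 10.93 against 9.98 and 10.42 (-0.70, SE 0.13, adjusted p = 0.0145). In all 5 genes both Runx1 arrays were above both Runx2 arrays, and the vector arrays were at or near the Runx2 level. The human RUNX1 array was below both Runx1 arrays in each. It read 4.06 for Cth, 7.78 for Chac1, 8.03 for Nupr1, 7.98 for Trib3 and 10.33 for Atf4. Uninduced RUNX1-ER cells had Chac1 at a mean of 8.47, against 7.08 in vector and 7.58 in the Runx2 line.

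The other members called were Fgf21 (a hormone of energy metabolism), the amino acid and folate enzymes Mthfd2, Mthfd1l, Gpt2, Psph and Aldh18a1, the amino acid carriers Slc7a5 and Slc7a1, the tRNA synthetases Yars and Mars1, and Eif4ebp1, a repressor of translation. On both vector arrays 15 of the 16 lay below both Runx1 arrays, and on both Runx3 arrays all 16 did. Such a place was common among genes called lower. Of all 179 other than Runx1, the Runx3 mean was above the Runx1 mean in only 7, and the vector mean in 52. Set against vector, where 1.7% of all genes were called for the Runx1 line and 2.57% for the Runx2 line, 11 members of the list were higher and 0 lower in the Runx1 line (median 0.23), and 1 was higher and 2 lower in the Runx2 line (median -0.13). These comparisons share their vector arrays, and each shares its line with the direct comparison. Members with no call included Ddit3 (10.58 and 10.69 against 9.75 and 10.38, adjusted p = 0.129), Asns (-0.40, adjusted p = 0.108) and Phgdh (9.97 and 10.05 against 10.11 and 10.02). In the list of the unfolded protein response, which senses misfolded protein in the endoplasmic reticulum, 1 of 25 members was called, Ppp1r15a, a target shared with the amino acid response (-0.87, adjusted p = 0.0139), and the median was -0.08. The chaperone Hspa5 read 11.17 and 11.01 against 11.01 and 10.98. The count of 16 was 4 without Runx1 replicate 1, 3 without Runx1 replicate 2, 4 without Runx2 replicate 1 and 16 without Runx2 replicate 2. Chac1, Atf4, Fgf21 and Ppp1r15a were lost without either Runx1 array or without Runx2 replicate 1, with highest adjusted p-values of 0.106, 0.134, 0.104 and 0.143. Cth, Nupr1 and Trib3 remained called without any 1 of the 4 arrays. Runx2 replicate 2 had the higher values of the Runx2 arrays in this list (list mean 7.76 against 7.61), and the Runx1 arrays had list means of 8.09 and 8.14.

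ATF4 binds, as a dimer with C/EBP proteins, to a composite element, and promoters of called members are shown with it. The sequences are the 250 bases before the start of transcription (RefSeq, GRCm38.p6), given 5′ to 3′ in the direction of the gene, and capitals mark matches to TGATGNAAN or its reverse complement. They lie at chr2:119350992-119351241 on the plus strand for Chac1, chr7:126625471-126625720 on the minus strand for Nupr1 and chr7:45615491-45615740 on the minus strand for Fgf21.
Chac1: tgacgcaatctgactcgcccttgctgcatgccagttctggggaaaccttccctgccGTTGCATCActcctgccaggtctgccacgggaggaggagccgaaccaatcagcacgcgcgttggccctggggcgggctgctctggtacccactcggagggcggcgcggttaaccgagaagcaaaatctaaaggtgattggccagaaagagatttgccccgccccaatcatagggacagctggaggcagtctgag
Nupr1: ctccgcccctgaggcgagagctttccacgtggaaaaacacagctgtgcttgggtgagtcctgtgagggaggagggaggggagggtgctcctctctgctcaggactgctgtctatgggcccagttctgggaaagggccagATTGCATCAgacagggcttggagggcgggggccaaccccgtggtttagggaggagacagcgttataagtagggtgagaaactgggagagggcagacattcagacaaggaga
Fgf21: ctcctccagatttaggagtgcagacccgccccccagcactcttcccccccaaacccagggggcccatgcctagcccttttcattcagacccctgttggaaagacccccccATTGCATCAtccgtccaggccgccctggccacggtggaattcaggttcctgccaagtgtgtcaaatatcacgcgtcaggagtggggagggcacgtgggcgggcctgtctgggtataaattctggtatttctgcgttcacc
The match began 194 bases before the start in Chac1, 111 in Nupr1 and 140 in Fgf21. Both strands were searched, and 11 of the 38 list members with a promoter in the table held a match (28.9%), as did 3 of the 13 called ones (23.1%), against 404 of 14368 promoters of all genes tested (2.81%). A match is a description of these letters and not a bound site.

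Some genes that respond to low oxygen were lower in the Runx2 line, and none of those listed was called higher. HIF-1 and HIF-2 are the transcription factors that low oxygen stabilises, and their targets include glycolytic enzymes, glucose carriers and regulators of pH and mitochondria. The glycolytic list here covers glycolytic enzymes, glucose transport and linked genes. Of its 24 members measured, 5 (20.8%) were lower in the Runx2 line and 0 higher. The median was -0.32, against -0.01 over all genes, of which 1.5% were called. Among the 5 calls, Slc2a1, Gbe1 and Pgm1 are not enzymes of glycolysis itself. Of 40 other HIF targets and oxygen sensors, 9 (22.5%) were lower and 0 higher, with a median of -0.22. The other 19 and 31 members were not called. Of the 8048 genes with a mean level above 5, 2.94% were called, with a median of -0.03. The largest difference was that of Car9, a cell-surface carbonic anhydrase, which read 6.30 and 6.62 in the Runx1 line and 4.76 and 4.99 in the Runx2 line (-1.59, SE 0.22, limma adjusted p = 0.00257). Higd1a, a mitochondrial protein, read 11.16 and 11.09 against 10.30 and 10.06 (-0.94, SE 0.13, adjusted p = 0.00269), and Gbe1, the glycogen branching enzyme, 6.38 and 6.38 against 5.46 and 5.32 (-0.99, SE 0.13, adjusted p = 0.00262). In these 3 genes the Runx2 arrays lay below vector cells, which were beside the Runx1 line (means 6.52, 11.19 and 6.20). Low levels were not particular to the Runx2 line. The Runx3 line (means 4.01, 9.90 and 5.87) and induced RUNX1-ER cells (5.23, 10.30 and 5.83) were also below the Runx1 line. Uninduced RUNX1-ER cells had means of 6.43, 11.20 and 6.52, and the human RUNX1 array read 6.30, 10.84 and 6.11. Slc2a1, the glucose carrier GLUT1, read 10.71 and 10.59 against 10.05 and 9.86 (-0.70, adjusted p = 0.00693), and vector, at 11.11 and 11.22, was above both lines. The other calls of the glycolytic list were Eno2 (6.73 and 6.73 against 5.31 and 6.14), Hk2 (-0.70) and Pgm1. The other called HIF targets were Ero1a (-0.89), Bnip3 (-0.86), Plod1, Fam162a, P4ha2, Egln1 and Ndrg1.

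This arrangement was the reverse of that in the amino acid response. Set against vector, the glycolytic list had 0 genes higher and 2 lower in the Runx1 line (median -0.06) and 0 higher and 9 lower in the Runx2 line (median -0.33). The other HIF targets had 3 higher and 3 lower in the Runx1 line (median -0.11) and 2 higher and 13 lower in the Runx2 line (median -0.36). On both Runx3 arrays all 9 called HIF targets lay below both Runx1 arrays, and so did 4 of the 5 calls of the glycolytic list. The exception was Hk2, at 8.13 and 8.20 in the Runx3 line against 8.07 and 7.94 in the Runx1 line. Of all 179 genes called lower other than Runx1, the Runx3 mean was above the Runx1 mean in only 7. The abundant enzymes Ldha, Pgk1 and Aldoa differed by -0.31, -0.33 and -0.28 and were not called (adjusted p = 0.219, 0.14 and 0.299). Hif1a read 9.49 and 9.36 against 9.45 and 9.61 (adjusted p = 0.779), and Vegfa, a well known HIF target, 7.18 and 7.07 against 6.86 and 7.24 (adjusted p = 0.907). The 5 glycolytic calls became 1 to 3 when 1 array was left out. The 9 other calls became 3 without either Runx1 array, 6 without Runx2 replicate 1 and 5 without Runx2 replicate 2. Car9, Higd1a and Gbe1 remained called throughout. Bnip3 was lost without either Runx1 array (highest adjusted p = 0.0597), Ero1a without Runx1 replicate 1 or Runx2 replicate 1 (0.0878), Slc2a1 without Runx1 replicate 1 (0.0813), Eno2 without either Runx1 array or Runx2 replicate 1 (0.155) and Hk2 without any 1 of the 4 (0.217). Of the smaller differences, Plod1 was lost without either Runx1 array or Runx2 replicate 2 (0.134), Egln1 without Runx1 replicate 2 (0.0542) and Ndrg1 without any 1 of the 4 (0.114).

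**Figure D3:**
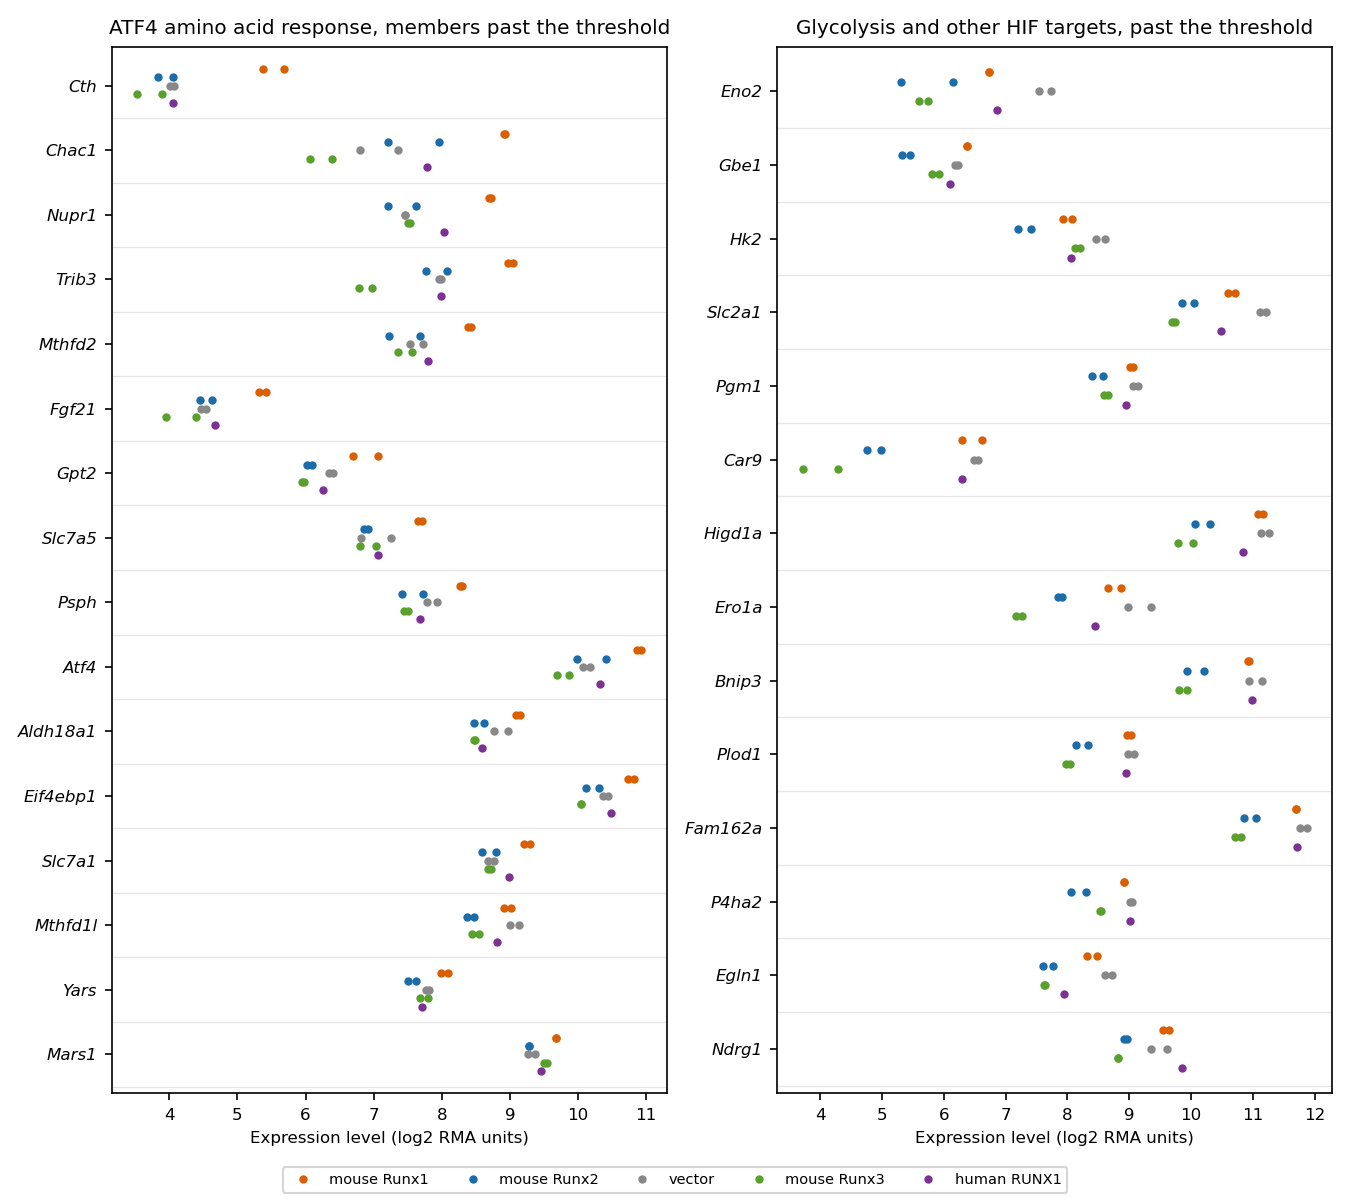
Expression level (log2 RMA units, horizontal axis), 1 point per array, of the 16 called members of the amino acid response (left) and of the 5 called members of the glycolytic list and 9 other HIF targets called (right), for the Runx1, Runx2, vector without 4-OHT and Runx3 groups (2 arrays each) and human RUNX1 (1 array). On the left the grey vector points mostly lie with the blue Runx2 points, as for Cth and Nupr1. On the right they mostly lie with or above the orange Runx1 points, as for Higd1a and Slc2a1.

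Promoters of called HIF targets are shown with the core of the hypoxia response element. The same 250 bases before the start are given, at chr7:138909507-138909756 on the minus strand for Bnip3, chr9:121857797-121858046 on the minus strand for Higd1a and chr4:43506776-43507025 on the plus strand for Car9 (RefSeq, GRCm38.p6). Capitals mark ACGTG or GCGTG on either strand, and where matches touch or overlap the capitals run together.
Bnip3: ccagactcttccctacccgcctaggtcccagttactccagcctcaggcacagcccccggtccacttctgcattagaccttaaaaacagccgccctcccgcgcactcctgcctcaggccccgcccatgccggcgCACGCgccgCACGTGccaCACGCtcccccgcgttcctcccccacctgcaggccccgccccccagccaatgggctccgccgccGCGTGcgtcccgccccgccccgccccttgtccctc
Higd1a: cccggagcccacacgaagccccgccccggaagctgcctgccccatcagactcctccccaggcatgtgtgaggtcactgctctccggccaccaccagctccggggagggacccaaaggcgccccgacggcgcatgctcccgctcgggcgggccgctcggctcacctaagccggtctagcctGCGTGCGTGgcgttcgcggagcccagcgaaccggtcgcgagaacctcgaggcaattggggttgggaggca
Car9: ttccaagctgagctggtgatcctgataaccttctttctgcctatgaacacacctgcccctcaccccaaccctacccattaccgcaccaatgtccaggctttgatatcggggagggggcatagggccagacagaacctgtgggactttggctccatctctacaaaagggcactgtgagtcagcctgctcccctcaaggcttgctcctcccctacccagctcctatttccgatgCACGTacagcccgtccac
Bnip3 had 5 matches, Higd1a 2, and Car9 1, which began 18 bases before the start. This short core is common: 27 of the 31 other HIF targets with a promoter held it (87.1%), including all 8 of the 8 called ones. Of 23 genes of the glycolytic list 19 did (82.6%), and 3 of the 5 called ones (60%). It was held by 53.6% of all promoters, by 64.5% of those of genes called higher and by 63.9% of those of genes called lower.

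Immediate early genes, which growth factors switch on through ERK kinases, and genes of ERK feedback included 5 of 40 that were lower in the Runx2 line (12.5%, against 1.5% of all genes) and 0 that were higher. The other 35 were not called, and the median was -0.19. Of the 8048 genes with a mean level above 5, 2.94% were called, with a median of -0.03. Dusp1, a phosphatase that switches off MAP kinases, read 8.35 and 8.30 in the Runx1 line and 7.01 and 7.00 in the Runx2 line (-1.32, SE 0.12, limma adjusted p = 1.41e-04), and vector lay between, at 7.70 and 8.04. Dusp4, of the same family, read 4.65 and 4.65 against 3.40 and 3.81 (-1.05, SE 0.13, adjusted p = 0.0014), with vector at the Runx2 level (mean 3.67). The others were the transcription factors Klf4 (-1.10) and Jun (-0.96), and Dusp6 (-0.83). Egr1, an early gene of the serum response, read 9.23 and 9.17 against 8.97 and 8.97 and was not called (adjusted p = 0.815), and Fos was at the dim end on all 4 arrays. The count was 3 or 4 when 1 array was left out. Klf4 was lost without Runx1 replicate 2 (adjusted p = 0.0592), and Jun without Runx1 replicate 1 or Runx2 replicate 2 (highest adjusted p = 0.139). Dusp6 was lost without either Runx1 array or Runx2 replicate 1 (0.0938).

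Among 58 growth factors and receptors, 3 were higher and 4 lower in the Runx2 line (12.1% called, against 1.5% of all genes). Hbegf, a ligand of the EGF receptor, read 7.90 and 7.69 against 6.34 and 6.64 (-1.31, SE 0.15, limma adjusted p = 8.00e-04), with vector between the lines at 7.01 and 6.93. Its other probe set differed by -1.31 as well and missed the threshold over probe sets (adjusted p = 0.0519). Igfbp4, which binds insulin-like growth factors, read 9.61 and 9.51 against 8.82 and 8.64 (-0.83, adjusted p = 0.00131), and all 5 of its other probe sets were called in the same direction. The receptor Erbb3 (-0.56) and the hormone Fgf21 were the other lower members. Higher were the growth hormone receptor Ghr (0.61), Irs1 (0.52), which relays the insulin signal, and Igfbp7 (0.61). Ghr was lost without either Runx1 array or Runx2 replicate 2 (highest adjusted p = 0.134), Erbb3 without either Runx1 array or Runx2 replicate 1 (0.0892), Igfbp7 without Runx1 replicate 1 or either Runx2 array (0.316) and Irs1 without any 1 of the 4 (0.126). In the TGF-beta and BMP list, 1 of 49 members was higher, the signal transducer Smad3 (0.59), and 3 were lower, the ligand Tgfb3 (-0.82), the receptor Tgfbr2 (-0.62) and the inhibitor of differentiation Id2 (-0.56). These calls were 8.16% of the list. No other probe set of Smad3, Tgfbr2 or Id2 was called, and each of these 4 genes was lost without at least 1 array. The highest adjusted p was 0.0864 for Smad3 (lost without either Runx1 array or Runx2 replicate 2), 0.055 for Tgfb3 (without Runx1 replicate 2), 0.111 for Tgfbr2 (without Runx1 replicate 2 or Runx2 replicate 1) and 0.145 for Id2 (without any 1 of the 4). Among 43 contractile genes and targets of SRF and YAP, 4 were lower and 0 higher: Ccn2 (-0.80), Ccn1 (-0.64), Tagln (-0.62) and Tpm4 (-0.36). This count (9.3% of the list) was 0 to 2 when 1 array was left out. Ccn2 was lost without Runx1 replicate 1 or Runx2 replicate 1 (0.113), Tagln without either Runx1 array or Runx2 replicate 1 (0.148), and Ccn1 and Tpm4 without any 1 of the 4 (0.313 and 0.223).

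Matrix and adhesion genes were called in both directions. Of 39 collagen chains, 4 were higher in the Runx2 line and 1 lower (12.8% called, against 1.5% of all genes, median 0.06). Col5a1, a chain of the fibril-forming collagen V, read 9.23 and 9.26 in the Runx1 line and 10.14 and 10.14 in the Runx2 line (0.89, SE 0.12, limma adjusted p = 0.002). Vector was level with the Runx1 line at 9.15 and 9.33, and the Runx3 line was above all of these at 11.42 and 11.63. Col6a1 and Col6a2, chains of the microfibrillar collagen VI, were higher by 0.58 and 0.55, and Col18a1, the source of endostatin, by 0.56. Col8a1, a short-chain collagen, was lower, at 7.08 and 7.10 against 5.92 and 6.29 (-0.98, SE 0.14, adjusted p = 0.00269). The major fibroblast collagens Col1a1 and Col1a2 differed by 0.30 and -0.04 and were not called. Col5a1 and Col8a1 remained called without any 1 of the 4 arrays, while Col6a1 and Col6a2 were lost without any 1 of them (highest adjusted p = 0.112 and 0.149) and Col18a1 without either Runx1 array or Runx2 replicate 2 (0.221). The count of higher collagens was 1 without either Runx1 array and 2 without either Runx2 array.

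Among 43 elastic fibre and matricellular genes, the 2 higher were Tnc and Ccn5, and the 3 lower were Ccn2, Ccn1 and Fbln5, so that members of the CCN family lay on both sides. Fbln5 was lost without any 1 of the 4 arrays (0.234). Among 37 proteoglycan genes, Vcan (versican, 0.73) and Sdc1 (syndecan-1, 0.42) were higher and Aspn lower. For Vcan the Runx2 mean (7.54) was near vector (7.74), and the Runx1 mean (6.81) lay below it. None of the 7 other probe sets of Vcan and the 3 of Sdc1 was called. Among 40 metalloproteinases and inhibitors, the proteases Adamts1 (0.72) and Adamts5 (0.40) were higher and Adam19 (-0.43) lower. For Adamts5, too, the Runx2 mean (10.01) was near vector (10.14), and the Runx1 mean (9.61) lay below it. In this group of 5, Vcan was lost without Runx1 replicate 1 or Runx2 replicate 2 (highest limma adjusted p = 0.116), Sdc1 without either Runx1 array or Runx2 replicate 2 (0.209), Adamts1 without either Runx1 array or Runx2 replicate 1 (0.113), and Adamts5 and Adam19 without any 1 of the 4 (0.175 and 0.161). Itgbl1 was the only call among 36 integrin and focal adhesion genes. Among 51 cadherins and immunoglobulin-type adhesion molecules, Cd47 (-0.51) and Pcdh18 (-0.45) were lower, and both were lost when an array was left out (Cd47 without either Runx1 array or Runx2 replicate 1, 0.114, and Pcdh18 without any 1 of the 4, 0.232). Called were 11.6% of the matricellular, 8.11% of the proteoglycan and 7.5% of the metalloproteinase list, against 1.5% of all genes. The integrin (2.78%) and cadherin (3.92%) shares were near the 2.94% of genes with a mean level above 5.

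The Snail, Zeb and Twist factors, repressors known from epithelial to mesenchymal transition, split. Snai1 was higher in the Runx2 line, at 6.41 and 6.40 against 7.66 and 7.48 (1.16, SE 0.20, limma adjusted p = 0.0104), and its level was higher still in the Runx3 line (8.78 and 8.88). Snai2 was lower, at 9.73 and 9.53 against 8.44 and 8.92 (-0.95, SE 0.14, adjusted p = 0.00346). For Snai1 the vector arrays (6.46 and 6.35) lay beside the Runx1 line, and for Snai2 they (8.77 and 8.90) lay beside the Runx2 line. Twist2 was lower by -0.51, and the other 11 of the 14 members were not called (21.4% called, against 1.5% of all genes). Snai1 was lost without either Runx1 array or Runx2 replicate 1 (highest adjusted p = 0.0921), Snai2 without Runx1 replicate 1 (0.0553) and Twist2 without either Runx1 array (0.0764).

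In the acute phase and gp130 list, 2 of 36 genes were higher in the Runx2 line and 3 lower (13.9% called, against 1.5% of all genes, median 0.05). The plasma proteins Hp and Orm1 (0.79) were higher, and Cp, the transcription factor Cebpd (-0.74) and the oncostatin M receptor Osmr (-0.60) were lower. Hp and Cp, both products of the liver in the acute phase, thus had the 2 largest differences of the list in opposite directions, and the hepatocyte markers measured, Alb among them, had a mean level of 4.01 to 4.09 on the 4 arrays. Orm1 was lost without either Runx1 array or Runx2 replicate 2 (highest limma adjusted p = 0.22), Osmr without Runx1 replicate 1 or either Runx2 array (0.261) and Cebpd without either Runx1 array or Runx2 replicate 1 (0.083). Among 45 interferon-stimulated genes, Ifitm1 and Samhd1 (0.45) were higher and Ifit2 (-0.60) and Isg20 (-0.47) lower (8.89% called). Samhd1 and Ifit2 were lost without either Runx1 array or Runx2 replicate 1 (0.215 and 0.0874), and Isg20 without any 1 of the 4 (0.212). Among 42 chemokines and receptors, 1 was called (2.38%, near the 1.5% of all genes). This was the lymphocyte homing receptor Ccr7 (0.82), at 3.29 and 3.53 against 4.43 and 4.04. It was lost without Runx1 replicate 1 or Runx2 replicate 1 (0.0916).

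Calls among genes of lipid, retinoid and cyclic nucleotide metabolism lay in both directions. Rdh10, which makes retinal from retinol, read 7.76 and 7.79 in the Runx1 line and 8.38 and 8.33 in the Runx2 line (0.58, SE 0.11, limma adjusted p = 0.0227), and both lines were far above vector (5.56 and 5.20). Ugcg, which makes glucosylceramide, read 7.31 and 7.48 against 8.26 and 8.28 (0.88, adjusted p = 0.0143), also with both lines above vector (6.14 and 5.83). In these genes the lines differed in the size of a difference from vector that had the same sign in both. Each was lost without any 1 of the 4 arrays (highest adjusted p = 0.154 for Rdh10 and 0.144 for Ugcg). Tm7sf2, an enzyme of cholesterol synthesis, was lower in the Runx2 line (7.58 and 7.51 against 6.63 and 6.83, adjusted p = 0.00268) and remained called throughout. Pde8a, which degrades cyclic AMP, was higher (3.43 and 3.54 against 4.29 and 4.43, adjusted p = 9.60e-04) and Pde8b, its relative, lower (-0.67). Pde8a remained called throughout and Pde8b was lost without either Runx1 array or Runx2 replicate 1 (0.146). The only other probe set of Pde8a, at the dim end, differed by -0.11 and was not called.

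The remaining lists had 1 to 4 calls each, in shares from 1.67% of the Wnt list to 11.8% of the Runx genes and partners, against 1.5% of all genes. Among the Runx genes and partners, the lower call was the inserted Runx1 itself, which the design gives. Of 60 Wnt pathway genes 1 was called, Tcf7l1. Of 17 Runx genes and partners the call besides Runx1 was Tle6, a corepressor of the Groucho family (0.45). Of 56 guidance cues and receptors, Slit3 (0.66) and Plxna1 (0.57) were higher and Unc5b (-0.73) lower. The prostaglandin receptor Ptger4 (0.96) and the phosphodiesterase Pde4d (-0.58) were called among 50 genes of prostaglandin and cyclic nucleotide signalling. In Ptger4, Slit3 and Tle6 the Runx1 line lay below vector (differences -1.07, -0.95 and -0.47), and the Runx2 line was not called against vector. Of 40 sphingolipid genes, the sphingomyelin synthase Sgms2 (-0.99) and the receptor S1pr3 (-0.64) were lower beside the higher Ugcg. Plxna1, Pde4d and Sgms2 each had 1 other probe set, at the dim end. These differed by -0.01, 0.04 and 0.07, opposite in sign to the calls, and were not called. Of 37 retinoid and aldo-keto reductase genes the lower one was Crabp1 (-0.55), and of 34 genes of sterol and fatty acid synthesis the call besides Tm7sf2 was Ebp (-0.35). The calls among 29 adipogenic genes were Lpl and Cebpd, that among 23 complement genes was C1ra (0.53), and that among 38 Nrf2 and metallothionein genes was Gsta4 (0.54). Of the genes first named here, each was lost without at least 1 array. Gsta4 was lost without Runx1 replicate 1 (limma adjusted p = 0.0902), S1pr3 without that array or Runx2 replicate 1 (highest 0.124), and Slit3, Pde4d, Sgms2 and Crabp1 without either Runx1 array or Runx2 replicate 1 (0.324, 0.328, 0.202 and 0.155). Ptger4 and Unc5b were lost without Runx1 replicate 2 or either Runx2 array (0.178 and 0.291), C1ra without either Runx1 array or Runx2 replicate 2 (0.288), and Tle6, Plxna1 and Ebp without any 1 of the 4 (0.159, 0.287 and 0.212).

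**Figure D4:**
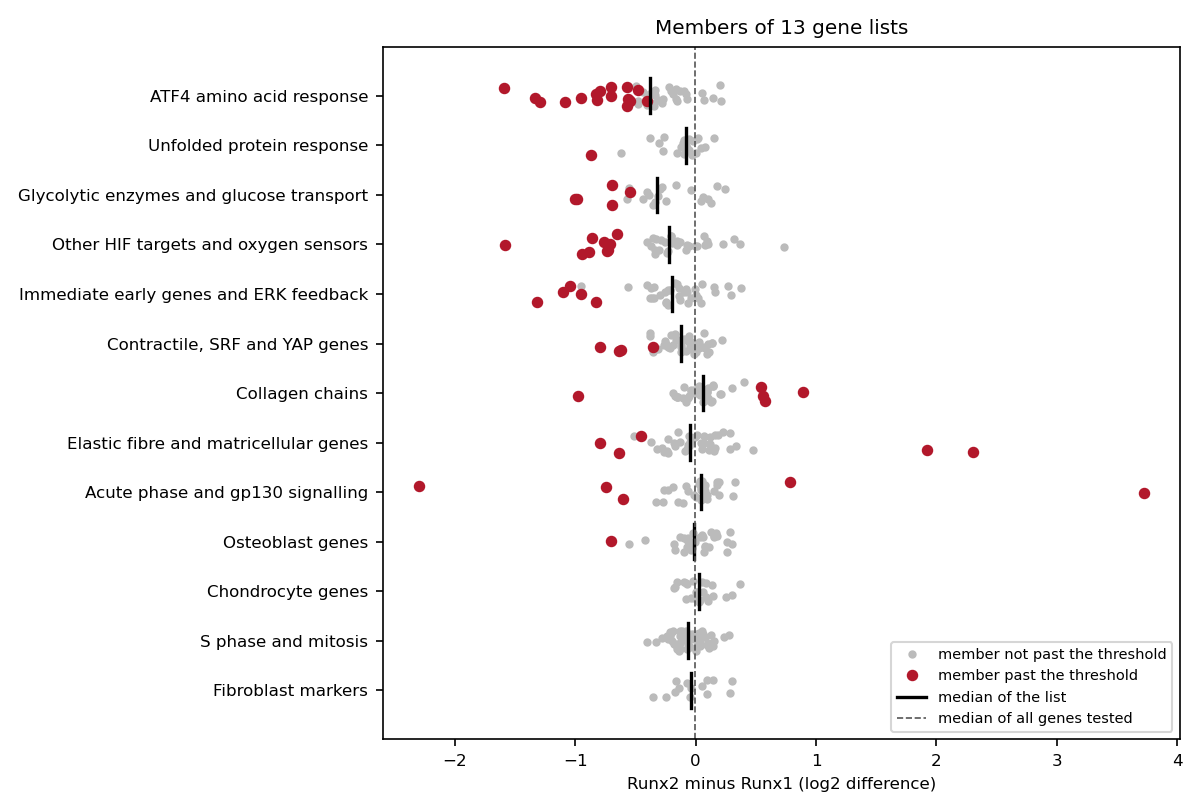
Difference between the Runx2 and Runx1 lines (log2, horizontal axis) for each measured member of 13 gene lists (rows), 2 arrays per line. Red points are called members, grey points are not called, black bars mark the median of a list and the dashed line the median of all genes (-0.01). Called members lie to the left of 0 in the amino acid, glycolytic, HIF, ERK feedback and contractile lists, and on both sides in the collagen, matricellular and acute phase lists.

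Lists tied to the known tissue roles of the proteins held 0 to 2 calls each, against 1.5% of all genes called. Of 34 osteoblast genes, 1 was called (2.94%), and that was Atf4, which the amino acid list also holds. Sp7, a transcription factor of osteoblasts, read 4.20 and 4.27 in the Runx1 line and 4.27 and 4.28 in the Runx2 line, and Alpl (alkaline phosphatase), Ibsp (bone sialoprotein) and Mmp13 (collagenase 3) were likewise at the dim end of the arrays in both lines, so that no difference could be measured for them. Of 24 chondrocyte genes 0 were called by limma, and Sox9, a regulator of cartilage, read 7.44 and 7.35 against 7.30 and 7.47. Of 35 genes known as Runx targets in blood cells, 2 were called (5.71%), Ccr7 higher and Cd34 (-0.46) lower. Cd34 was lost without any 1 of the 4 arrays (highest limma adjusted p = 0.289). In the list of 53 genes of S phase and mitosis 0 were called (Mki67, 8.98 and 8.99 against 8.99 and 9.09), and in that of 44 Bcl2 family members, caspases and death receptors 0 were called. Among 32 cell cycle inhibitors, D cyclins and p53 genes, 9.38% were called. Gas1, a growth arrest protein of the membrane, was higher (0.49). Its Runx2 mean (12.17) was near vector (12.13), and its Runx1 mean (11.68) lay below. Lower were Cdkn1a (-0.54), which encodes the inhibitor p21, and Rbl2 (-0.59), of the retinoblastoma family. The only other probe set of Cdkn1a differed by 0.26, in the opposite direction, and was not called. Gas1 was lost without either Runx1 array (0.0667), Cdkn1a without either Runx1 array or Runx2 replicate 2 (0.129) and Rbl2 without any 1 of the 4 (0.164).

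The element that Runx proteins bind was sought in the same 250 bases, as TGTGGT or TGCGGT on either strand. It was found in 8 of the 76 promoters of genes higher in the Runx2 line (10.5%), in 27 of 147 of genes lower (18.4%) and in 2946 of 14368 promoters of all genes tested (20.5%). Of the 24 genes with the largest differences, 17 had a promoter in the table, and 1 of these, Car9, held the element. Elements further away were not searched.

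The groups outside the comparison were placed by whether their mean was nearer to the Runx2 or the Runx1 line, over the 272 called genes other than Runx1. The Runx3 line was nearer to the Runx2 line for 221 of them (81.2%, against 53.2% of all genes), with 78.7% on each of its arrays. For the 179 genes lower in the Runx2 line this was 85.5% and for the 93 higher 73.1%. Induced RUNX1-ER cells were nearer to the Runx2 line for 191 genes (70.2%, against 51% of all genes). The human RUNX1 array was nearer to the Runx2 line for 148 (54.4%, against 51.4%), and thus about equally close to both. Vector cells were nearer to the Runx2 line for 105 (38.6%, against 46.2%). Uninduced RUNX1-ER cells (37.5%) and vector cells with 4-OHT (39.7%) were placed like vector. When 1 array was left out, the share for the Runx3 line ran from 60.9% to 85.1%. The shares of all genes were taken with every array in, so they are no matched baseline for such ranges. The share for vector ran from 25.3% to 49.5%. Its highest value, without Runx1 replicate 1, was above the 46.2% of all genes with every array in. That for induced RUNX1-ER cells ran from 46% to 80.6%: without Runx2 replicate 2, whose closest array was 1 of theirs, it was 46% of the called genes. These shares are counts over genes that are not independent of each other, and they were not tested.

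**Figure D5:**
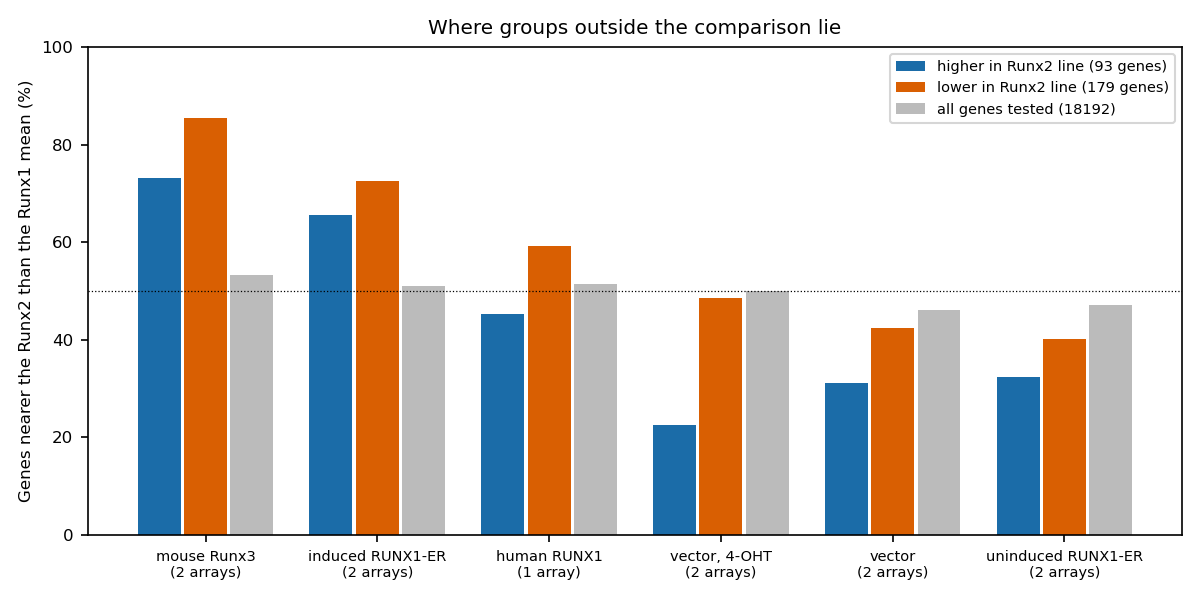
Share of genes (percent, vertical axis) for which the mean of a group outside the comparison was nearer to the Runx2 than to the Runx1 mean, for the genes called higher (blue, 93) and lower (orange, 179) in the Runx2 line and for all genes (grey, 18192, without Runx1). The dotted line marks equal shares at 50%. The Runx3 bars stand at 73.1% and 85.5%, and the vector bars at 31.2% and 42.5%.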

How the data were processed

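Per the labels' protocols, the authors scanned with GCOS and computed log2 RMA signals with the Bioconductor package affy inside the FunAlyse pipeline. No version or probe-set definition was found in the labels. RMA gives all arrays the same distribution, so a difference in RNA per cell is not visible. There were 45101 probe sets on 15 arrays. Of these, 34945 carried a single symbol (platform annotation), 932 more than 1, and 9160 none, and 64 were controls. Each of 18193 genes was represented by its brightest probe set, by the mean of the 15 arrays. The limma package (version 3.58.1, R 4.3.3; lmFit and eBayes) was fitted with 1 coefficient per group over all 15 arrays, where the contrast itself uses only the Runx1 and Runx2 arrays and the other groups help to estimate the spread, with 7 residual and 5.65 prior degrees of freedom. Tests were two-sided, with Benjamini-Hochberg adjustment and a threshold of 0.05. The steps were tested on simulated data.

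Genes were named by rule: the 12 largest called differences in each direction whose arrays do not overlap, without predicted genes, RIKEN clones and GenBank-type names, up to 4 called members of each of 41 lists, the Runx genes and cell type markers; members beyond these were chosen after their values were seen. The comparison and the lists were chosen with earlier results of these data known, so lists are described by counts and medians, with no set test. Of 49 called genes with further probe sets, 24 had another called in the same direction and 0 one called in the opposite direction. Promoters are RefSeq's, of GRCm38.p6. Alternatives tried were fewer arrays in the fit, each array left out, other probe sets, filters, scalings and variance models, and the replicate number as a block. The number of arrays limits the precision.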

Additional observations from a re-analysis of the deposited data

How the results depend on the processing

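The 273 calls (93 higher, 180 lower, 39 at least 2-fold) became 25 (13, 12 and 22) with the 4 arrays fitted alone, and 464 (140 and 324) with an intensity trend in eBayes. Among genes above 6 in 1 of the lines there were 439 calls, of which 326 lower, and among genes with a mean above 5 there were 278 lower, with fewer genes tested. Without 1 array the calls ranged from 88 to 290, those higher from 33 to 105, those lower from 52 to 185, and those of at least 2-fold from 32 to 53. Without the vector arrays 211 genes were called. Of the 87 named genes other than Runx1, 27 remained called without any 1 of the 4 arrays, 18 with the 4 arrays fitted alone and 70 without the vector arrays. The share of called genes nearer to the Runx2 line ranged, without 1 array, from 60.9% to 85.1% for Runx3, 46% to 80.6% for induced RUNX1-ER, 45% to 58.6% for human RUNX1 and 25.3% to 49.5% for vector. It was 37.5% for human RUNX1 over the genes called with 4 arrays alone and 45.8% for vector over those called with the mean of probe sets. The uncalled Runx3 gene (-0.07) ran from -0.22 to 0.085 without 1 array, above 0 without Runx2 replicate 2, and was 0.049 with the mean of probe sets. The causes were not tested. The difference of the Runx1 gene was -4.59 and ran from -4.72 to -4.46 without 1 array, and was -1.16 with the mean of its 6 probe sets, 4 of which were not called.

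The differences between replicates 1 and 2 correlated at -0.0754 between the Runx1 and Runx2 lines, and at -0.121 to 0.116 over 21 pairs of groups. This shows no strong common shift by replicate number, but cannot tell whether arrays of the same number were prepared together. With the replicate number as a block, and the unnumbered human RUNX1 array dropped, 247 genes were called (86 higher, 161 lower, 39 at least 2-fold) and the Runx1 gene differed by -4.59.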
